A study of Mus musculus with 12 samples.

Results

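The glucocorticoid receptor gene Nr3c1 and 5 genes known to be raised by the hormone-bound receptor, Tsc22d3, Fkbp5, Ddit4, Sgk1 and Txnip, were followed in splenic CD4+ T cells of mice with ligature-induced periodontitis. The 6 genes were found by gene symbol and read by Ensembl identifier, and they are 6 of the 55414 gene records counted. The rule names genes and uses no measured value, and all 6 passed the filter on low counts in every comparison. The cells came from male wild-type BALB/c mice of 18 weeks. In the LIP group silk ligatures had been tied around the second maxillary molars for 14 days, and the CTL group had anesthesia alone. CD4+ T cells were purified from the spleen by negative selection and taken at once (day 0) or after 2 days of culture with IL-2, anti-TCRβ and anti-CD28 (day 2), so that culture, time and stimulation cannot be told apart in any difference between the days.

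Each of the 4 groups had 3 libraries, named here by the number in their label, which were 88, 89 and 94 for CTL and 92, 93 and 94 for LIP on day 0, and 92, 93 and 97 for CTL and 90, 96 and 97 for LIP on day 2. The labels do not say whether a library came from 1 mouse or a pool, so p-values measure the spread between these libraries. On day 2 both libraries numbered 97 carry a treatment label that reads anti-CD30, and CTL 93 and LIP 96 one that reads anti-CD29, where the other labels of that day read anti-CD28. The doses also differ between sources, with IL-2 at 10 ng/mL and anti-TCRβ at 1 µg/mL in the labels and 2.5 ng/mL and 3 µg/mL in the methods.

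On the GRCm39 assembly Nr3c1 (ENSMUSG00000024431) lies on chromosome 18 from 39543598 to 39652474, Tsc22d3 (ENSMUSG00000031431) on chromosome X from 139440091 to 139501408 and Fkbp5 (ENSMUSG00000024222) on chromosome 17 from 28618058 to 28737521. Ddit4 (ENSMUSG00000020108) and Sgk1 (ENSMUSG00000019970) both lie on chromosome 10, from 59785491 to 59788492 and from 21758083 to 21875802. Txnip (ENSMUSG00000038393) lies on chromosome 3 from 96465267 to 96469201. All 6 are annotated as protein coding. Genes on the opposite strand share exon sequence with Txnip (Gm15441) and Fkbp5 (Gm22146 and Gm55779), and whether the counting used strand is not given in the sources used here. Further opposite-strand genes share exon sequence with Nr3c1 (Gm58395), Sgk1 (ENSMUSG00000123559 and Gm66039) and Fkbp5 (Gm65054) in GENCODE M39 and were not analysed here. Gm15441 was counted at 0.0894 to 5.64 CPM (counts scaled to a common library size) and the neighbours Gm22146 and Gm55779 of Fkbp5 at 0 to 4.46.

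Glucocorticoids are steroid hormones of the adrenal cortex that cross the cell membrane and bind a receptor held ready in the cytoplasm by HSP90 and its co-chaperones. The hormone-bound receptor moves to the nucleus, where it raises some genes by binding a palindromic DNA element and lowers others, many of them cytokine genes, by acting on NF-κB and AP-1. T cells are a classical target of the hormone, which restrains their activation and kills thymocytes. Tsc22d3 encodes GILZ, a leucine zipper protein that binds NF-κB and AP-1 proteins, and Fkbp5 encodes FKBP51, a co-chaperone that lowers the affinity of the receptor for its hormone. Ddit4 encodes REDD1, an inhibitor of mTORC1, Sgk1 encodes a kinase downstream of PI3K and mTORC2, and Txnip encodes a thioredoxin-binding arrestin-like protein that restrains glucose uptake. Each of the response genes also answers to other signals, among them FOXO factors, glucose, hypoxia and growth factors.

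The RefSeq promoter table (GRCm38.p6) holds 12 promoters for 5 of the 6 genes, 6 for Sgk1, 3 for Tsc22d3 and 1 each for Fkbp5, Ddit4 and Txnip, and each was found once in GRCm39 by exact match. Windows of 300 bases, 250 before and 50 after the transcript start, were searched on both strands for the palindromic receptor element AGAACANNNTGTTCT, its looser core GNACANNNTGTNC, its 6-letter arm AGAACA, the E-box CACGTG that MondoA-type factors bind, and the FOXO motif GTAAACA. The full element, which holds the core and 2 arms, was present in 3 of all 32851 promoters (0.00913%), and 1 of the 3 was a promoter of Sgk1, where the match begins 189 bases before the start. The core was present in 156 promoters (0.475%), among them this one and that of Txnip, where the match begins 172 bases before the start. The arm was present in 6233 promoters (19%), among them 3 of Sgk1 and 1 of Tsc22d3. The E-box was present in 2349 promoters (7.15%), among them that of Fkbp5 and 1 of Sgk1, where it overlaps an arm, and the FOXO motif in 1199 (3.65%), among them that of Txnip, 121 bases before its start. No match was found in the window of Ddit4, which says only that these letters are not in those 300 bases.

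The 250 bases before the start are shown for Sgk1 (chr10:21869539-21869788, plus strand), Txnip (chr3:96465023-96465272, plus strand) and Tsc22d3 (chrX:139501272-139501521, minus strand), the 3 genes whose levels fell most between the days, each read 5′ to 3′ along the gene. Capitals mark the full element in Sgk1, the core in Txnip and the arm in Tsc22d3.
Sgk1: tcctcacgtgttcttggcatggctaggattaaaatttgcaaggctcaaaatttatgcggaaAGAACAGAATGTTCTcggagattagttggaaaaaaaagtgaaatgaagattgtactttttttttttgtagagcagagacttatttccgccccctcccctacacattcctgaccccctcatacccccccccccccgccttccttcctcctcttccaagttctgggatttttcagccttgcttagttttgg
Txnip: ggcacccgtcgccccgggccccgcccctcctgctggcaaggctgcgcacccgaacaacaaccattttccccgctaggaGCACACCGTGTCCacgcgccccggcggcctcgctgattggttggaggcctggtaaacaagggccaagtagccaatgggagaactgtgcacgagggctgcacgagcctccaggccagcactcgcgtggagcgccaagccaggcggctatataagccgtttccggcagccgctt
Tsc22d3: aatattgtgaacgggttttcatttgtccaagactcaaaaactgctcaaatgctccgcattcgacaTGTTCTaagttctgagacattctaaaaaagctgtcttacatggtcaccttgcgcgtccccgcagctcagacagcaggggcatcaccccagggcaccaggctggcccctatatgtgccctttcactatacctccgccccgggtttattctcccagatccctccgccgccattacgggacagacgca

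The libraries held 6249094 to 7845715 counts on day 0 and 8691745 to 12866751 on day 2, so that 3 counts correspond to 0.382 to 0.48 CPM and 0.233 to 0.345 CPM. This floor covers counting error only. Summed levels of 5 CD4 T cell markers were 1750 to 2290 CPM in the 12 libraries, and those of 2 CD8 markers were 4.42 to 13.2 CPM. Pairs of libraries of 1 group differed by a chi-square of 2.82 to 43.5 per gene, the highest values separating LIP 90 of day 2 from LIP 96 (43.5) and LIP 97 (34.8), so no library was counted as a copy of another. Of the 6 leave-one-out fits of day 0, each made without 1 library, the one without CTL 94 called the most genes, 658 against 60 with all 6. On day 2 the fit without LIP 90 called 2014 genes against 0 with all 6, and results that rest on either library are given with and without it. Fewer cells of a type and less RNA per cell cannot be told apart in these bulk libraries.

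Levels below are CPM scaled by the trimmed mean of M-values (TMM), means ± SD of 3 libraries. Fold changes and p-values come from the quasi-likelihood test of edgeR, adjusted over all genes tested after Benjamini and Hochberg, and a gene was called at an adjusted p under 0.05. Per kilobase of exon sequence, the level on day 0 in CTL was highest for Txnip (431 CPM per kb), followed by Tsc22d3 (68.9), Ddit4 (46.7), Nr3c1 (31.3), Sgk1 (13.6) and Fkbp5 (4.99). Txnip exceeded 99.7% of the genes with a length in that group. On day 2 in CTL the order was Ddit4 (30.2), Txnip (20.9), Nr3c1 (17.3), Fkbp5 (6.44), Tsc22d3 (1.49) and Sgk1 (0.833). On day 2 in LIP it was Txnip (31.3), Ddit4 (26.8), Nr3c1 (18.4), Fkbp5 (5.54), Tsc22d3 (5.25) and Sgk1 (1.10). Tsc22d3 went from the 97.8th to the 31.2nd percentile of genes per kb in CTL and from the 97.7th to the 59.1st in LIP.

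**Figure D1:**
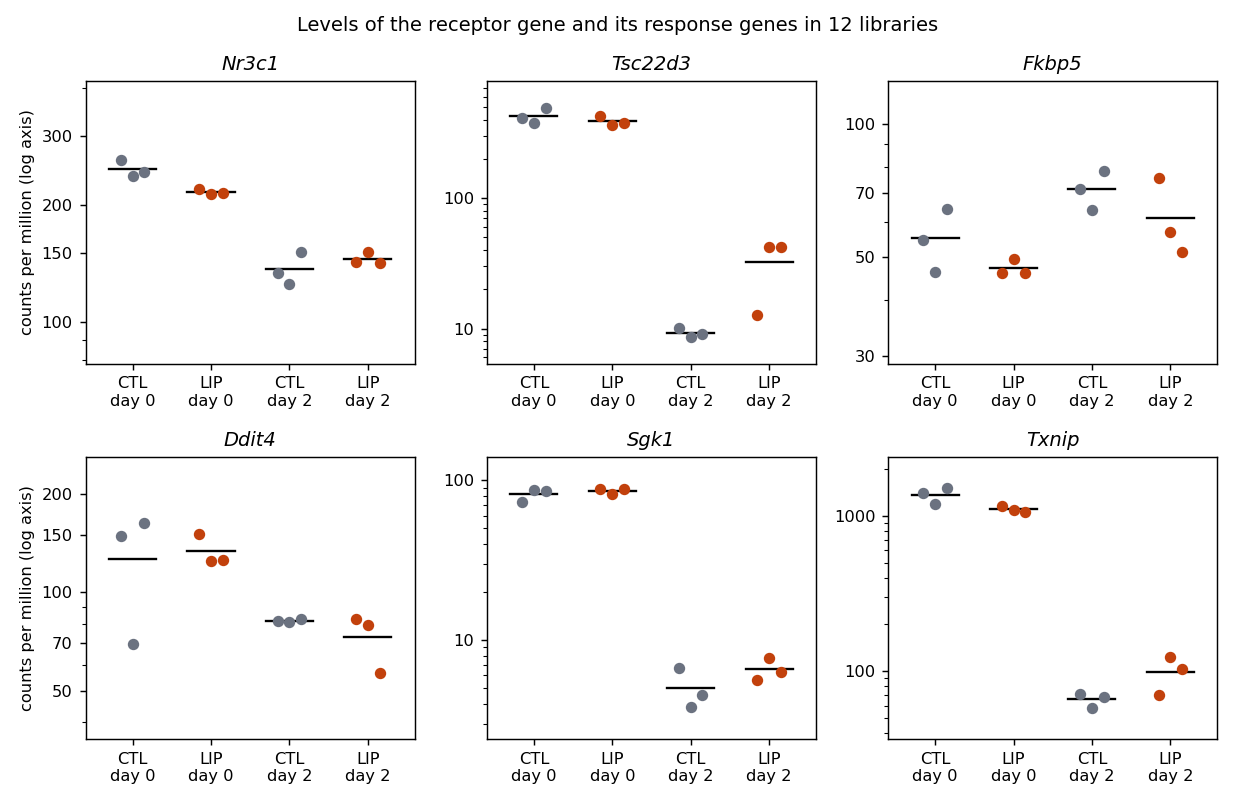
Each panel plots the level of 1 gene in CPM on a log axis, with a point for each of the 3 libraries of a group and a line at their mean (CTL grey, LIP orange). Tsc22d3, Sgk1 and Txnip drop more than 10-fold from day 0 to day 2 in the CTL group, and LIP 96 and LIP 97 of day 2 lie at 42.5 and 42.4 CPM for Tsc22d3, above LIP 90 at 12.6.

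The largest differences lay between the days. In CTL 5 of the 6 genes fell and 1 rose, where 33.7% of the 15475 genes tested were called lower and 35.3% higher. In LIP the same 5 genes fell and the same gene rose, where 35.2% were called lower and 36.6% higher. The median log2 fold change over the 6 genes was -2.43 in CTL and -2.17 in LIP, beside -0.022 and -0.0028 over all genes tested. In CTL 4 genes had every library of day 2 below every library of day 0 and none had the reverse, where 36.1% of genes were below and 37.2% above. In LIP 5 were below and 1 above, where 37.4% were below and 37.4% above. The share of genes called is high in both groups, so the count of called members is not a result about them, and the sizes of the falls carry the description.

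Nr3c1, the receptor itself, measured 260, 237 and 242 CPM in CTL 88, 89 and 94 on day 0 and 133, 125 and 151 CPM in CTL 92, 93 and 97 on day 2. In LIP it measured 219, 213 and 214 CPM in 92, 93 and 94 on day 0 and 143, 152 and 142 CPM in 90, 96 and 97 on day 2. Every library of day 2 was below every library of day 0, and on day 2 the groups overlapped. The log2 fold change from day 0 to day 2 was -0.85 in CTL (standard error 0.091, adjusted p = 1.96e-06) and -0.57 in LIP (standard error 0.090, adjusted p = 7.36e-05). The receptor transcript was 1.80-fold and 1.48-fold lower, and per kb it still exceeded 85.4% of genes in CTL and 85.9% in LIP on day 2.

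Tsc22d3, which encodes GILZ, measured 410, 377 and 493 CPM in CTL and 425, 365 and 375 CPM in LIP on day 0. On day 2 it measured 10.0, 8.60 and 9.08 CPM in CTL 92, 93 and 97 and 12.6, 42.5 and 42.4 CPM in LIP 90, 96 and 97. The groups overlapped on day 0, and on day 2 the LIP libraries all lay above those of CTL, with LIP 90 much nearer to the CTL libraries than to LIP 96 and 97. The fall from day 0 to day 2 was 46.05-fold in CTL (log2 fold change -5.52, standard error 0.36, adjusted p = 2.14e-08) and 12.0-fold in LIP (-3.59, standard error 0.32, adjusted p = 3.31e-07). In CTL it ranked 49th from the lowest log2 fold change among 15475 genes. Without LIP 90 the fall in LIP was -3.19 on the log2 scale (adjusted p = 9.89e-11, the lowest of the 12 leave-one-out fits, which reached 3.74e-06).

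Txnip, the thioredoxin-binding protein, measured 1397, 1197 and 1499 CPM in CTL and 1158, 1088.5 and 1065 CPM in LIP on day 0. On day 2 it measured 71.4, 58.3 and 68.5 CPM in CTL 92, 93 and 97 and 70.1, 124 and 104 CPM in LIP 90, 96 and 97. On day 0 the LIP libraries all lay below those of CTL, and on day 2 LIP 96 and 97 were above the CTL libraries while LIP 90 lay among them. The log2 fold change from day 0 to day 2 was -4.37 in CTL (standard error 0.19, adjusted p = 8.29e-10) and -3.48 in LIP (standard error 0.18, adjusted p = 2.66e-09), that is 20.6-fold and 11.1-fold lower.

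Sgk1, the kinase downstream of PI3K, measured 73.5, 86.3 and 85.1 CPM in CTL and 87.6, 81.6 and 87.5 CPM in LIP on day 0. On day 2 it measured 6.66, 3.82 and 4.54 CPM in CTL and 5.64, 7.77 and 6.35 CPM in LIP, from 32 to 83 counts a library. The groups overlapped on both days and the days did not. The log2 fold change was -4.01 in CTL (standard error 0.18, adjusted p = 8.87e-10) and -3.70 in LIP (standard error 0.17, adjusted p = 1.14e-09).

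Ddit4, the mTORC1 inhibitor REDD1, measured 148, 69.3 and 162 CPM in CTL 88, 89 and 94 and 151, 124 and 126 CPM in LIP 92, 93 and 94 on day 0. On day 2 it measured 81.5, 81.3 and 82.8 CPM in CTL and 82.7, 79.2 and 56.7 CPM in LIP. CTL 89 of day 0 lay below all CTL libraries of day 2, so the days overlapped in CTL and did not in LIP. The log2 fold change was -0.63 in CTL (standard error 0.24, adjusted p = 0.0306) and -0.87 in LIP (standard error 0.24, adjusted p = 0.00489). The call in CTL was lost in 5 of the 12 leave-one-out fits, with an adjusted p of 0.129 without CTL 88 and 0.194 without CTL 94 of day 0, and of 0.073 without CTL 92, 0.0737 without CTL 93 and 0.0661 without CTL 97 of day 2. Without CTL 89 of day 0, the low library, it was -0.92 (adjusted p = 0.000158).

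Fkbp5, the co-chaperone FKBP51, was the gene that rose. It measured 54.8, 46.3 and 64.5 CPM in CTL and 46.0, 49.5 and 46.1 CPM in LIP on day 0, and 71.5, 64.1 and 78.2 CPM in CTL and 75.5, 57.2 and 51.3 CPM in LIP on day 2. The days touched in CTL, where 64.1 CPM of CTL 93 lay below 64.5 CPM of CTL 94 on day 0, and did not in LIP. The log2 fold change was 0.37 in CTL (standard error 0.15, adjusted p = 0.0416) and 0.38 in LIP (standard error 0.15, adjusted p = 0.0368). The call in CTL was lost in 5 of the 12 leave-one-out fits, with an adjusted p of 0.076 without CTL 88, 0.174 without CTL 89 and 0.0545 without LIP 94 of day 0, and of 0.0774 without CTL 92 and 0.132 without CTL 97 of day 2. In LIP it was lost in 4, at 0.0857 without LIP 92, 0.0513 without LIP 93 and 0.0901 without LIP 94 of day 0, and at 0.174 without LIP 90 of day 2. Under upper-quartile normalization the median of all genes moved by -0.285 in CTL and -0.317 in LIP, and the change of Fkbp5 became 0.082 and 0.056, which is 0.39 and 0.38 above that median. With this scaling 38.4% of called genes were higher in CTL and 37.7% in LIP, beside 51.1% and 51% with TMM, and the other 5 genes stayed lower.

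**Figure D2:**
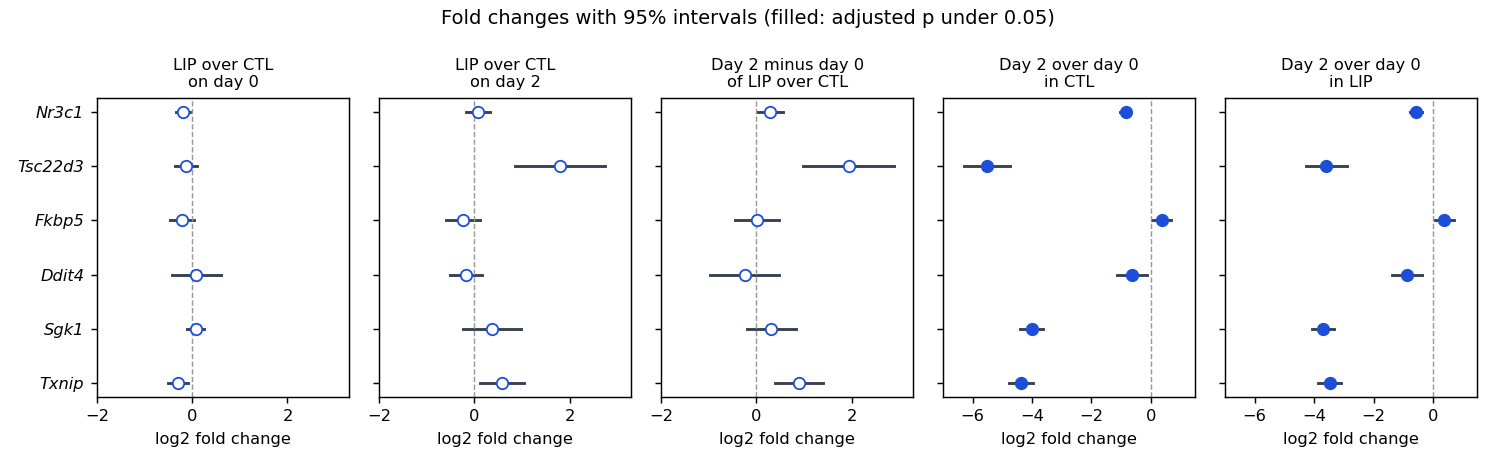
Points are log2 fold changes of the 6 genes in 5 comparisons and bars are their 95% intervals, filled where the adjusted p is under 0.05; the 3 panels on the left share an axis, as do the 2 on the right. All 12 changes between the days are filled, and none of the 18 points on the left is, the highest being Tsc22d3 at 1.80 on day 2 and 1.94 for the difference between the days.

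On day 0, before stimulation, the comparison of LIP with CTL asked whether the receptor gene or its response genes differed in freshly purified cells. None of the 6 was called higher or lower, where 0.0569% of 14064 genes were called higher and 0.37% lower. At an unadjusted p under 0.05 there were 2 of the 6, beside 1951 of all genes, and both were lower in LIP. Txnip had a log2 fold change of -0.30 (95% interval -0.50 to -0.098, adjusted p = 0.185 by edgeR's test). Nr3c1 had one of -0.19 (95% interval -0.33 to -0.041, adjusted p = 0.244 by edgeR's test). In both genes the LIP libraries lay below all CTL libraries, as they did for 9.54% of all genes, while 9.66% lay above. The summed level of 9 immediate early genes, which rise quickly on stimulation, also differed. It was 1310, 1170 and 599 CPM in CTL 88, 89 and 94 and 584, 463 and 470 CPM in LIP 92, 93 and 94. Of 8 tested, 3 were called lower in LIP. In CTL of day 2 the sum was 1020 to 1280 CPM, within the range of CTL of day 0. The 6 activation genes named below summed to 805, 649 and 665 CPM in CTL and 604, 582 and 605 CPM in LIP. Of the 6, 1 was called lower, Cd69 (log2 fold change -0.90, adjusted p = 0.0375 by edgeR's test). Myc was lower (-0.23) and Il2ra (0.34), Mki67 (0.28), Tfrc (0.13) and Cd44 (0.04) were higher in LIP, none of them called. Pancreatic acinar markers summed to 0.601, 0.841 and 1.44 CPM in CTL and to 0.825, 14.7 and 7.87 CPM in LIP 92, 93 and 94, with all 9 counted in LIP 93 and 94 and 5 or 6 of 9 at 0 in the other libraries. NK cell markers summed to 4.96, 1.92 and 5.51 CPM in CTL and 5.22, 6.60 and 9.47 CPM in LIP, with 1 of 3 at 0 in each library. The part of these genes in the results of day 0 was not tested.

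The call on Txnip depended on the fit. DESeq2 called 202 genes, Txnip among them (log2 fold change -0.31, adjusted p = 0.0243), and the fit with no filter on low counts called 645, again with Txnip (adjusted p = 0.017). In the leave-one-out fits its adjusted p ran from 0.0354 without CTL 89 to 0.526 without LIP 93. The other 4 genes had intervals on both sides of 0. These ran from -0.36 to 0.093 for Tsc22d3, from -0.47 to 0.032 for Fkbp5, from -0.42 to 0.59 for Ddit4 and from -0.11 to 0.25 for Sgk1, on the log2 scale. As a ratio of LIP to CTL the interval of Sgk1 ran from 0.929 to 1.19 and that of Ddit4 from 0.748 to 1.51.

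On day 2 the same comparison asked whether the groups differed after stimulation. None of the 6 was called, where 0% of 14041 genes were called higher and 0% lower by edgeR. At an unadjusted p under 0.05 there were 2322 genes, and 2 of the 6 were among them. Tsc22d3 was 3.48-fold higher in LIP (log2 fold change 1.80, 95% interval 0.85 to 2.75, adjusted p = 0.131 by edgeR's test), the 71st highest of 14041 log2 fold changes. Txnip was 1.49-fold higher (log2 fold change 0.58, 95% interval 0.11 to 1.04, adjusted p = 0.223 by edgeR's test). The groups were apart for Tsc22d3, as for 9.99% of genes in that direction and 11.3% in the other.

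The calls turned on LIP 90 and, for Tsc22d3, also on the tool and the fit. Without LIP 90 Tsc22d3 had a log2 fold change of 2.21 (95% interval 1.91 to 2.52, adjusted p = 2.29e-05) and Txnip one of 0.80 (95% interval 0.51 to 1.09, adjusted p = 0.00457), in a fit that called 13.9% of 14453 genes. When any other library was left out, neither was called, and the adjusted p of Tsc22d3 reached 0.528 and that of Txnip 0.601, both without CTL 93. Tsc22d3 was also called with DESeq2 (adjusted p = 0.000489, 485 genes called), with no filter on low counts (0.000191, 662 genes) and in the fit of all 12 libraries (0.0133, 775 genes). Its log2 fold change stayed between 1.57 and 2.21 in all of these.

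**Figure D3:**
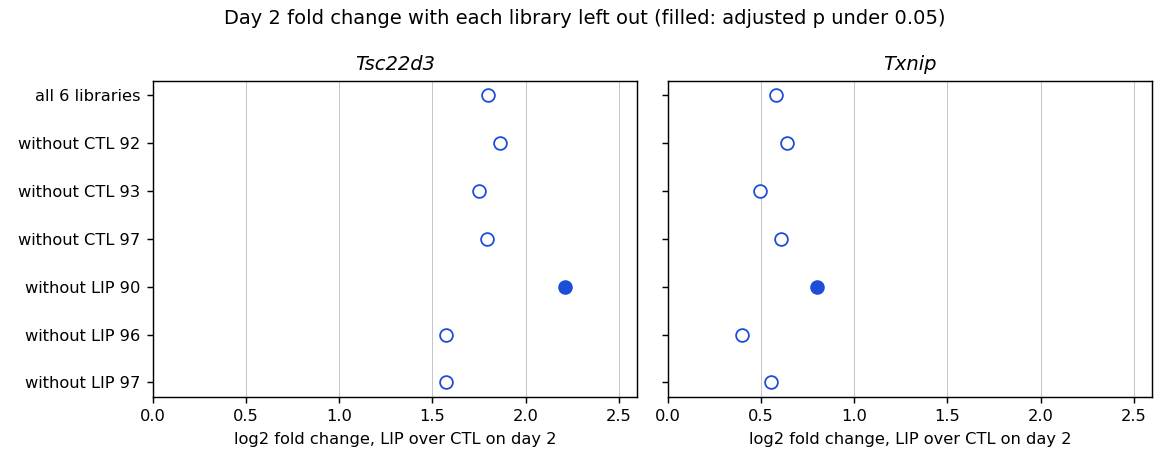
Each point is the log2 fold change of LIP over CTL on day 2 with all 6 libraries or with 1 left out, filled where the adjusted p is under 0.05. Both genes stay above 0 in every row, and the only filled points are those without LIP 90, at 2.21 for Tsc22d3 and 0.80 for Txnip.

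Markers of other cells moved with Tsc22d3 among the libraries of day 2. The summed level of 5 B cell markers was 2.64, 2.62 and 16.1 CPM in CTL 92, 93 and 97 and 0.894, 24.2 and 21.7 CPM in LIP 90, 96 and 97. It was high in LIP 96 and 97, where Tsc22d3 was high, but also in CTL 97, where Tsc22d3 was 9.08 CPM. The 2 CD8 markers summed to 4.42 to 6.32 CPM in CTL and to 4.92, 13.2 and 9.19 CPM in LIP 90, 96 and 97. The 6 activation genes (Cd69, Il2ra, Myc, Tfrc, Mki67 and Cd44) summed to 5470 to 5770 CPM in CTL, 6220 in LIP 90, 4360 in LIP 96 and 4780 in LIP 97, so that the libraries with the most Tsc22d3 had the lowest sums. Markers of myeloid cells (2.41 to 4.85 CPM), NK cells (0 to 1.12), erythroid cells (0.738 to 1.91) and platelets (0.527 to 2.62) were low in all 6 libraries. Of the 7 myeloid markers 3 or 4 were at 0 counts. Pancreatic acinar markers summed to 9.49, 10.4 and 5.22 CPM in CTL 92, 93 and 97, with 6 or 7 of 9 at 0 counts in each library of day 2. In LIP 90, 96 and 97 they summed to 3.4, 6.36 and 3.88 CPM. Only Prss2 of them was tested (log2 fold change -1.09, adjusted p = 0.175 by edgeR's test). The 9 immediate early genes summed to 1150, 1280 and 1020 CPM in CTL 92, 93 and 97 and to 1220, 1470 and 1590 CPM in LIP 90, 96 and 97. Their part in the result was not tested.

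The other 4 genes had intervals on both sides of 0 on day 2. These ran from -0.18 to 0.34 for Nr3c1, from -0.59 to 0.13 for Fkbp5, from -0.51 to 0.15 for Ddit4 and from -0.23 to 0.99 for Sgk1, on the log2 scale. As a ratio of LIP to CTL the interval of Nr3c1 ran from 0.881 to 1.27 and that of Sgk1 from 0.854 to 1.98.

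Whether the LIP over CTL difference itself changed from day 0 to day 2 was tested as an interaction in the fit of all 12 libraries. None of the 6 was called, where 0.0323% of 15475 genes were called higher and 0.0194% lower, and 3 of the 6 had an unadjusted p under 0.05, beside 2464 of all genes. The difference grew by 1.94 on the log2 scale for Tsc22d3 (95% interval 0.98 to 2.90, adjusted p = 0.0871), by 0.89 for Txnip (95% interval 0.38 to 1.40, adjusted p = 0.104) and by 0.28 for Nr3c1 (95% interval 0.0099 to 0.56, adjusted p = 0.296), all by edgeR's test. The mean of LIP was below that of CTL on day 0 and above it on day 2 in all 3 genes, of which none was called on either day. Without LIP 90 the interaction was called for Tsc22d3 (2.33, adjusted p = 2.74e-06) and Txnip (1.09, adjusted p = 0.000774), in a fit that called 1596 genes. In the 12 leave-one-out fits the adjusted p ran up to 0.225 for Tsc22d3 and 0.251 for Txnip. DESeq2 called both (adjusted p = 0.0182 and 0.0151) among 520 genes. The comparisons within a day, between days and of both together share libraries and are not independent of each other.

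The order of the 4 groups differed between the genes. Nr3c1 went from CTL of day 0 (246 ± 11.9 CPM) to LIP of day 0 (215 ± 3.37), LIP of day 2 (145 ± 5.46) and CTL of day 2 (137 ± 13.5), where only the last 2 overlapped. Tsc22d3 had the same order, at 427 ± 60.1, 388 ± 32.5, 32.5 ± 17.2 and 9.24 ± 0.733 CPM, where only the first 2 overlapped. Txnip again had that order, at 1365 ± 154, 1104 ± 48.7, 99.3 ± 27.2 and 66.1 ± 6.90 CPM, where only the last 2 overlapped. Sgk1 and Ddit4 led with LIP of day 0, at 85.6 ± 3.45 and 134 ± 15.1 CPM, each overlapping CTL of day 0 at 81.7 ± 7.06 and 127 ± 50.2 CPM. Fkbp5 ran the other way, from CTL of day 2 (71.3 ± 7.06 CPM) to LIP of day 2 (61.3 ± 12.6), CTL of day 0 (55.2 ± 9.06) and LIP of day 0 (47.2 ± 2.00), and each neighbour in that order overlapped the next.

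Likeness of pattern was measured as the root mean square difference of log2 CPM over the 12 libraries, each gene centred on its own mean, among 15474 other genes. The closest pair among the 6 was Sgk1 and Txnip, at 0.231, and each was among the 3 nearest genes of the other. The nearest of all were Cd1d1 (0.176) and Ccr9 (0.202) for Sgk1 and, after Sgk1, Kctd12b (0.242) and Ccr9 (0.264) for Txnip. Tsc22d3 stood further from any gene, with Rapgef4 (0.406), Itga1 (0.535) and Gm43196 (0.538) nearest and Txnip at 0.569. Nr3c1 was matched within 0.0635 by Msl2, 0.0652 by Tgfbrap1 and 0.0684 by Zfp746, and Ddit4 within 0.21 by Iah1, 0.219 by Itgb1 and 0.226 by Dusp12. Fkbp5 was matched within 0.105 by Dck, 0.112 by Nus1 and 0.114 by Nanp, and its distance to the other 5 genes was 0.573 to 2.63. These are distances in the same 12 libraries, dominated by the difference between the days, and carry no test.

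Of the 10 lists of related genes, the chaperone list alone had called genes on day 0 with all 6 libraries. It holds 16 genes of the HSP90 machinery that keeps the receptor able to bind hormone, and 10 of them were lower in LIP and none higher, where 0.37% of all genes were called lower, with a median log2 fold change of -0.63 beside 0.0088 over all genes. Leaving out 1 library gave 6 to 10 lower, the lowest count without LIP 93, in fits that called 13 to 658 of all genes. The immediate early and activation sums given above were lower in every LIP library of day 0 than in every CTL library. This held for 9.54% of single genes. In the immediate early sum CTL 94 at 599 CPM lay near LIP 92 at 584 CPM, apart from CTL 88 and 89 at 1310 and 1170 CPM. Of the activation genes, only Cd69 and Myc had negative log2 fold changes. The acinar sum exceeded the CTL range of day 0 in LIP 93 and 94 only, and the NK cell sum of LIP 92 lay within the CTL range. Their part was not tested. Stip1, which bridges HSP70 and HSP90, fell from 165 ± 16.4 to 64.8 ± 2.15 CPM (log2 fold change -1.35, standard error 0.083, adjusted p = 1.56e-05). Hsp90ab1, the constitutive HSP90, went from 1181 to 1345 CPM in the CTL libraries to 584 to 616 CPM in the LIP libraries (log2 fold change -1.09, adjusted p = 3.19e-05). Fkbp4, which encodes FKBP52, the co-chaperone that favours hormone binding and is the counterpart of Fkbp5, fell from 98.2 ± 7.32 to 56.6 ± 2.88 CPM (log2 fold change -0.79, adjusted p = 0.00101).

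On day 2 none of the 16 chaperone genes was called by edgeR, and 2 had an unadjusted p under 0.05, beside 2322 of all 14041 genes. Without LIP 90, 5 were called, beside 13.9% of all genes. Between the days 9 rose and 2 fell in CTL, where 35.3% of all genes were called higher, and 13 rose and 1 fell in LIP, where 36.6% were, with medians of 0.38 and 0.93. Fkbp4 had a log2 fold change of 0.10 in CTL (adjusted p = 0.571) and rose by 0.84 in LIP (adjusted p = 0.000304), and the difference between those changes was 0.74 (adjusted p = 0.13). The difference was called for 2 chaperone genes, Hsp90ab1 (1.46, adjusted p = 0.000672) and Hspa8, which encodes the constitutive HSC70 (1.42, adjusted p = 0.0168). The call on Hspa8 was lost in 5 of the 12 leave-one-out fits, at 0.0768 without CTL 88, 0.0514 without CTL 89, 0.0846 without LIP 92 and 0.102 without LIP 93 of day 0, and at 0.0547 without CTL 93 of day 2, while that on Hsp90ab1 held in all 12. Without LIP 90 of day 2 the difference was called for 6 chaperone genes, beside 10.1% of all genes. Without CTL 94 of day 0 it was called for 2, beside 0.169% of all genes. With all 12 libraries it was called for 8 of 15475 genes.

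The coregulators that the receptor recruits gave no call in 16 genes on either day. The medians were -0.088 on day 0 and -0.10 on day 2, with 4 of 16 at an unadjusted p under 0.05 on each day. Such a p was reached by 1951 of all 14064 genes on day 0 and 2322 of 14041 on day 2. Without CTL 94, 2 were called on day 0, beside 4.59% of all genes. Without LIP 90, 3 were called on day 2, beside 13.9% of all genes. Between the days 8 rose and 6 fell in CTL, and 6 rose and 7 fell in LIP, where 35.3% of all genes were called higher and 33.7% lower in CTL, and 36.6% and 35.2% in LIP. The deacetylase Hdac3 rose (log2 fold change 1.02 in CTL and 1.05 in LIP, adjusted p = 1.96e-06 and 1.3e-06), whereas the corepressor Ncor1 fell by 0.65 in CTL (adjusted p = 5.79e-05).

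Of the genes of steroid supply and the sister receptor, 6 of 8 were tested between the days, of which Cyp11a1 passed the filter through day 2 only and Nr3c2 through day 0 only, which fixed their directions. Of the other 4, 1 rose and 3 fell in each group. Over all genes 35.3% were called higher and 33.7% lower in CTL, and 36.6% and 35.2% in LIP. Hsd11b1, whose enzyme regenerates active glucocorticoid inside cells, fell from 39.4 ± 4.08 to 2.71 ± 1.18 CPM in CTL (log2 fold change -3.86, adjusted p = 4.83e-09) and from 37.8 ± 0.677 to 2.39 ± 0.29 CPM in LIP (-3.98, adjusted p = 3.78e-09). Nr3c2, the mineralocorticoid receptor that also binds glucocorticoid, measured 6.33 ± 0.854 CPM on day 0 and 1.12 ± 0.0449 CPM on day 2 in CTL. H6pd, which supplies the cofactor of that enzyme, fell by 1.01 in CTL (adjusted p = 2.42e-06). Within each day 5 genes were tested, with Nr3c2 on day 0 and Cyp11a1 on day 2 as the ones that differ. None was called by edgeR with all 6 libraries, while 1 was called on day 2 without LIP 90, beside 13.9% of all genes. An unadjusted p under 0.05 was reached by 0 of them on day 0 and 1 on day 2. Among all genes it was reached by 1951 of 14064 and 2322 of 14041.

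Of 20 other genes known to be raised by glucocorticoid 18 were tested between the days, of which 2 passed the filter through day 2 only and 1 through day 0 only, and of the other 15 there were 6 that rose and 6 that fell in CTL, and 8 that rose and 6 that fell in LIP. Over all genes 35.3% were called higher and 33.7% lower in CTL, and 36.6% and 35.2% in LIP. The receptor of interleukin-7, Il7r, fell from 896 ± 112 to 96.9 ± 28.6 CPM in CTL (log2 fold change -3.21, adjusted p = 1.83e-08), and Sesn1 fell by 1.78 (adjusted p = 1.37e-08). Il7r, Sesn1 and Irs2 also belong to the FOXO list below, so the 2 lists are not separate observations. The phosphatidate phosphatase Lpin1 rose by 1.65 in CTL (adjusted p = 3.92e-07). On day 0 none of 16 was called by edgeR, the median was -0.21, and 7 had an unadjusted p under 0.05, beside 1951 of all 14064 genes. Without CTL 94, 5 were called, beside 4.59% of all genes. On day 2 none of 17 was called, the median was 0.0079, and 4 had an unadjusted p under 0.05, beside 2322 of all 14041 genes. Without LIP 90, 6 were called, beside 13.9% of all genes.

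Among those, Bcl2l11, the proapoptotic protein BIM, had the lowest adjusted p on day 0, with 111 ± 3.62 CPM in CTL and 85.6 ± 4.39 CPM in LIP (log2 fold change -0.37, adjusted p = 0.0525). Dusp1, a phosphatase of MAP kinases, had 80.6 to 199 CPM in the CTL libraries and 64.0 to 84.6 CPM in LIP (log2 fold change -1.04, adjusted p = 0.106). Between the days Dusp1 fell by 3.15 on the log2 scale in CTL (adjusted p = 2.37e-07) and by 1.94 in LIP (adjusted p = 1.53e-05). The immediate early sums given above were also lower in LIP on day 0, and their part in these values was not tested.

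Of 12 cytokine and adhesion genes known to be held down by glucocorticoid, 7 passed the filter between the days, and 4 of these (Il2, Il4, Il13 and Csf2) passed it through day 2 only, where they are high, so that their direction was fixed by the filter and they are not counted here. The other 3, Tnf, Icam1 and Ifng, rose in both groups, where 35.3% of all genes were called higher in CTL and 36.6% in LIP. Tnf, an inflammatory cytokine, rose from 18.8 ± 2.19 to 65.3 ± 5.76 CPM in CTL (log2 fold change 1.80, adjusted p = 1.57e-08). Icam1, an adhesion molecule that the list also holds, rose from 24.9 ± 2.66 to 61.2 ± 2.24 CPM in CTL (2.46-fold, adjusted p = 1.84e-06) and 1.85-fold in LIP (adjusted p = 5.34e-05). On day 2 none of the 7 was called between the groups by edgeR, and 4 had an unadjusted p under 0.05, beside 2322 of all 14041 genes. Of these 4, Csf2 (log2 fold change 1.36) and Il4 (1.00) were higher in LIP, and Il2 (-1.47) and Ifng (-1.11) were lower. Without LIP 90, 5 of the 7 were called, beside 13.9% of all genes.

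**Figure D4:**
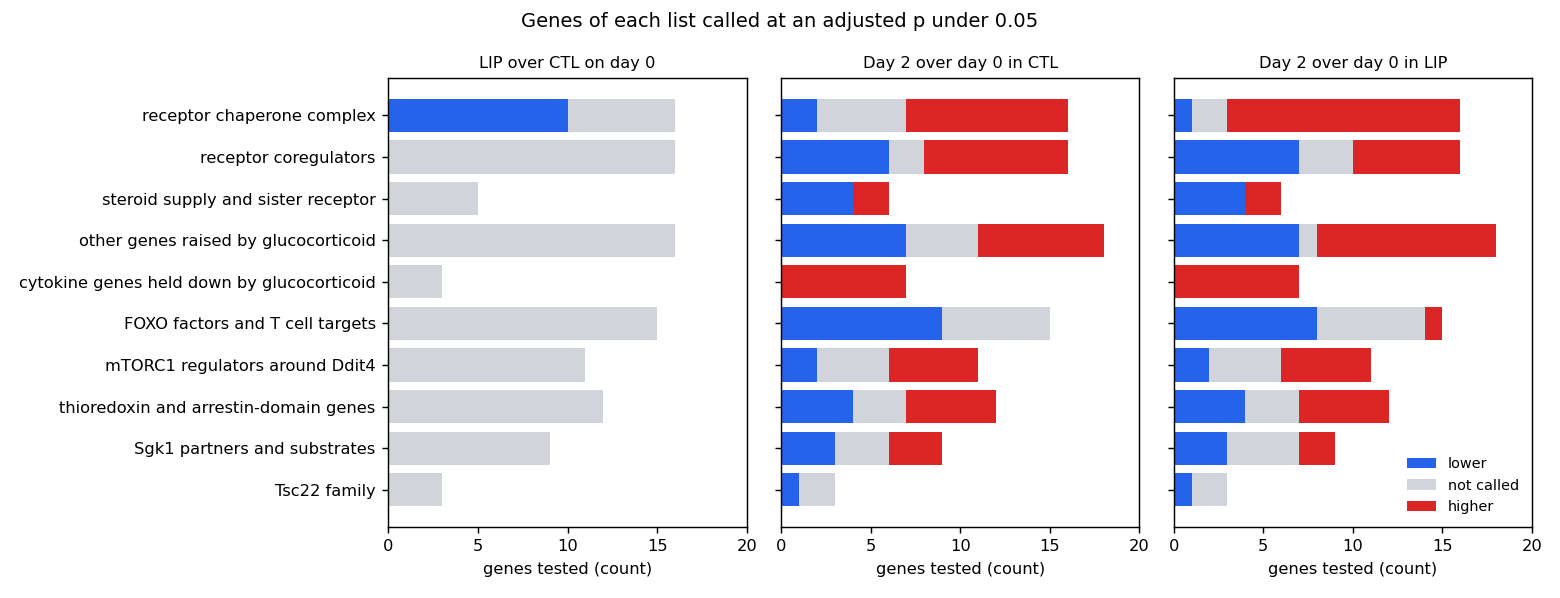
Bars count the tested genes of each list that were called lower (blue), called higher (red) or not called (grey) in 3 comparisons. On day 0 only the receptor chaperone complex has called genes, 10 of 16 and all lower, and between the days the FOXO list falls by 9 of 15 in CTL while 4 of the 7 red cytokine genes passed the filter through day 2 only and had to rise.

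The genes around each response gene were read from lists of their partners. Of 15 FOXO factors and their T cell targets, 9 fell and none rose in CTL, and 8 fell and 1 rose in LIP. The medians were -1.05 and -0.66, and the share of all genes called lower was 33.7% in CTL and 35.2% in LIP. Foxo1 and Foxo3 themselves were not called in either group. S1pr1, the receptor for egress from lymphoid organs, fell from 501 ± 121 to 13.6 ± 2.73 CPM in CTL (log2 fold change -5.21, adjusted p = 1.62e-09). Pik3ip1, an inhibitor of PI3K, fell by 3.68 in CTL (adjusted p = 3.75e-09) and by 3.71 in LIP (adjusted p = 3.45e-09). None of the 15 was called within a day by edgeR. An unadjusted p under 0.05 was reached by 4 on day 0 and 5 on day 2, beside 1951 of all 14064 genes and 2322 of 14041. On day 0 4 were called without CTL 94, beside 4.59% of all genes, and on day 2 4 without LIP 90, beside 13.9%.

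Of 12 genes around Ddit4 that regulate mTORC1, 11 were tested between the days, 1 of them through day 0 only, and of the other 10 there were 5 that rose and 1 that fell in each group, beside 35.3% and 33.7% of all genes in CTL. None was called within a day by edgeR. An unadjusted p under 0.05 was reached by 0 on day 0 and 3 on day 2, beside 1951 of all 14064 genes and 2322 of 14041. Without LIP 90, 2 were called on day 2, beside 13.9% of all genes. Sesn2, like Ddit4 an inhibitor of mTORC1 that stress induces, rose from 4.82 ± 1.01 to 66.7 ± 3.42 CPM in CTL (log2 fold change 3.78, adjusted p = 5.48e-08), where Ddit4 had a log2 fold change of -0.63, with the overlap and the lost calls given above.

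Around Txnip, 5 rose and 4 fell of 12 tested genes in each group, beside 33.7% to 36.6% of all genes called in each direction. Txn1, the thioredoxin that Txnip binds, rose from 14.04 ± 3.98 to 136 ± 20.3 CPM in CTL (log2 fold change 3.28, adjusted p = 1.74e-07) and from 16.9 ± 0.268 to 143 ± 58.7 CPM in LIP (3.08, adjusted p = 2.37e-07), as Txnip fell. Mlxip, which encodes MondoA, the glucose-sensing activator of Txnip, fell by 0.73 in CTL (adjusted p = 1.33e-05) and by 0.96 in LIP (adjusted p = 1.01e-06). The paralog Arrdc4 measured 6.69 to 9.42 CPM in CTL and 5.10 to 23.4 CPM in LIP on day 2 (log2 fold change 1.09, adjusted p = 0.315). Of the 12, 3 were called on day 2 without LIP 90, beside 13.9% of all genes, and 1 on day 0 without CTL 94, beside 4.59%.

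Of 9 tested partners and substrates of Sgk1, 3 rose and 3 fell in CTL, and 2 rose and 3 fell in LIP, beside the same shares of all genes. None was called within a day by edgeR. An unadjusted p under 0.05 was reached by 1 on day 0 and 2 on day 2, beside 1951 of all 14064 genes and 2322 of 14041. Without LIP 90, 1 was called on day 2, beside 13.9% of all genes. Foxo3 and Mtor of this list are also in the FOXO and mTORC1 lists above. The related kinase Sgk3 fell from 28.6 ± 2.59 to 3.41 ± 1.33 CPM in CTL (log2 fold change -3.06, adjusted p = 7.21e-08), and Ndrg1, a substrate of the kinase, rose by 1.32 in CTL (adjusted p = 2.34e-06) and by 1.92 in LIP (adjusted p = 6.43e-08). Rictor, the defining subunit of mTORC2, fell by 0.67 in CTL (adjusted p = 1.73e-05). Of the 3 relatives of Tsc22d3, Tsc22d2 fell by 0.71 in CTL (adjusted p = 3.87e-05) and by 0.32 in LIP (adjusted p = 0.0137), and Tsc22d1 and Tsc22d4 were not called. Tsc22d3 itself had log2 fold changes of -5.52 in CTL and -3.59 in LIP.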

How the data were processed

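RNA from CD4+ T cells was sequenced after rRNA depletion as strand-specific 150-bp paired reads. According to the methods and the submitters' notes, reads were trimmed with Trimmomatic and mapped to GRCm39 with HISAT2, and the authors deposited expected counts per gene from RSEM 1.3.0 with Bowtie2. The authors also deposited tables for each day of normalized signal per library, used here for gene symbols only, together with their own fold changes and p-values, which were not used. The tables hold 2 columns that match no labelled sample and were not used. Expected counts were rounded to whole numbers (73267 values were not whole) and tested with edgeR 4.0.16 (filterByExpr, TMM, quasi-likelihood test, Benjamini-Hochberg over all genes), within a day on 6 libraries and between days and for the interaction on all 12. DESeq2 1.42.0 in R 4.3.3 served as an alternative, beside other scalings, filters and leaving out each library. Exon lengths came from GENCODE M39. Counts of list genes that passed the filter within both days, and the list counts without LIP 90 or CTL 94, were added after seeing the data. The genes and gene lists were chosen with earlier results of these data known. Named were the 6 genes, at most 4 genes a list with the lowest adjusted p in the comparison described plus those that a sentence on a member needs, and the 3 genes nearest in pattern. With 3 libraries against 3, the smallest 2-sided exact permutation p is 0.1, so tests rest on the fit across all genes.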

Additional observations from a re-analysis of the deposited data

Results flagged for a closer look

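Both genes below belong to the receptor chaperone list, and were singled out because the LIP over CTL difference differed between day 0 and day 2 in the interaction test of edgeR. For Hsp90ab1 the difference grew by 1.46 on the log2 scale (standard error 0.13, adjusted p = 0.000672), from a lower level in LIP on day 0 to 3702 ± 80.9 CPM in LIP against 2874 ± 216 in CTL on day 2. It was called in each of the 12 fits that left out 1 library, with adjusted p-values of 7.87e-06 to 0.00859. For Hspa8 it grew by 1.42 (standard error 0.19, adjusted p = 0.0168), from 452 ± 49.9 CPM in LIP against 874 ± 54.7 in CTL on day 0 to 1528 ± 240 against 1105 ± 137 on day 2. The call was lost in 5 of the 12 fits that left out 1 library, and its adjusted p ran from 5.78e-05 without LIP 90 of day 2 to 0.102 without LIP 93 of day 0.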

How the results depend on the processing

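The counts of genes called moved with the tool, the filter and the libraries used. On day 0 the 60 genes called became 645 with no filter on low counts, 202 with DESeq2 and 12 in the fit of all 12 libraries, and 1 member, Txnip, was called lower with no filter and with DESeq2. On day 2 the 0 genes called became 662 with no filter, 1 with at least 10 counts in every library, 485 with DESeq2 and 775 in the fit of all 12 libraries, and 1 member, Tsc22d3, was called higher with no filter, DESeq2 and all 12 libraries. For the interaction the 8 genes called became 815 with no filter and 520 with DESeq2, and 2 members, Tsc22d3 and Txnip, were called higher in both. Between the days 0 members were called higher with upper-quartile normalization and with at least 10 counts in every library, in CTL and in LIP, and in LIP also 0 with only the 6 libraries of that condition. Interaction values of Fkbp5 close to 0 changed sign, to -0.026 with upper-quartile normalization and -0.019 with at least 10 counts.

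Leaving out 1 library gave 13 to 658 genes and 0 to 1 members called lower on day 0, 0 to 2014 genes and 0 to 2 members called higher on day 2, and 1 to 1596 genes and 0 to 2 members called higher for the interaction. Members called higher between the days ran from 0 to 1 in both groups. On day 0 the log2 fold change of Ddit4 ran from -0.22 to 0.32 and that of Sgk1 from -0.0014 to 0.11, and the interaction ran from -0.17 to 0.13 for Fkbp5 and from -0.49 to 0.055 for Ddit4, so these directions are not fixed. The cause of these shifts was not tested. Over the alternatives for the fold changes of the 6 genes, 66 of 72 kept direction and side of the threshold on day 0, 67 of 72 on day 2, 96 of 108 in CTL and 101 of 108 in LIP between the days, and 88 of 102 for the interaction. No paired analysis was run. The groups compared within a day share only 1 replicate number, 94 on day 0 and 97 on day 2. Between the days CTL shares no number with CTL and LIP none with LIP, while LIP of day 0 and CTL of day 2 share 92 and 93. The labels do not say what the number marks. At 3 libraries a group the widest interval of the 6 genes within a day, that of Tsc22d3 on day 2, spanned 0.85 to 2.75 on the log2 scale, and the day 2 level of Sgk1 rests on as few as 32 counts.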
